A study of Mus musculus with 14 samples.

Results

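Signals of 7 genes of the pigment cell programme, Dct, Tyrp1, Tyr, Pmel (older symbol Si), Kit, Ednrb and Mitf, were followed across mouse corneal stroma and cells grown from it. The members were taken by gene symbol from the probe annotation of the array. That gave 10 probe sets of 12422 that were not controls, and 7 genes of 8251 with a probe set of their own. Probe sets entered the tests if at least 1 group had a mean signal of 50 or higher. All 7 genes passed, with 9 of their 10 probe sets. Tyrp1 had 4 probe sets and each other gene had 1. All samples came from CD-1 mice, an albino outbred stock. Corneal stroma, the collagen-rich layer beneath the corneal epithelium, was dissected from adults 7 to 8 weeks old (3 arrays) and from pups at postnatal day 10, here P10 (2 arrays). The other 9 arrays came from adult stromal cells of the same age range grown as primary cultures in DMEM, 3 arrays per medium. The keratocyte medium held 1% platelet-poor horse serum, the fibroblast medium 10% fetal bovine serum, and the myofibroblast medium the same 10% serum plus TGF-beta1 at 10 ng/ml. Tyrp1 and Tyr reached a mean of 50 only at P10 and in keratocyte cultures, and Mitf only in the tissues. Ednrb reached it at P10 and in keratocyte and myofibroblast cultures, and Kit in both tissues and keratocyte cultures. Tests of these genes against groups under 50 are thus not independent of the filter. The labels do not say that arrays of a group came from separate animals or cultures, so each p-value measures the spread between these arrays, which may be technical.

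Pigment cells, or melanocytes, arise from the neural crest and make melanin inside organelles called melanosomes. The transcription factor Mitf switches on the genes of the tyrosinase family (Tyr, Tyrp1 and Dct) and Pmel, whose product forms the fibrils on which melanin is laid down. Kit and Ednrb are surface receptors that the precursors of these cells need to survive and migrate. In the eye, melanocytes lie in the choroid, the iris and the limbus at the edge of the cornea, and the retinal pigment epithelium uses many of the same genes. In albino mice the Tyr gene carries a coding mutation, so pigment cells form and keep transcribing the programme but make no melanin. Kit is also carried by mast cells, and Ednrb by glia and vessel walls.

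The 3 enzymes of the tyrosinase family share one short sequence near their starts, which is why their promoters are shown here. CATGTG is one form of the E-box that Mitf is known to bind, and was searched on both strands in 300-base windows from 250 bases before to 50 after each gene start (RefSeq, GRCm38.p6). The windows are chr14:118052197-118052496 (minus strand) for Dct, chr4:80833963-80834262 (plus strand) for Tyrp1 and chr7:87493463-87493762 (minus strand) for Tyr. They read 5′ to 3′ along the gene, with matches in capitals.
Dct: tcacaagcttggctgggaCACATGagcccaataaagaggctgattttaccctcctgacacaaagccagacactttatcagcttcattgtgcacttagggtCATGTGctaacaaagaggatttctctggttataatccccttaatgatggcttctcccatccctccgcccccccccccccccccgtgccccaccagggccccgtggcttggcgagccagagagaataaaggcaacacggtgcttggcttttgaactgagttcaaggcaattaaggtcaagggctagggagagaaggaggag
Tyrp1: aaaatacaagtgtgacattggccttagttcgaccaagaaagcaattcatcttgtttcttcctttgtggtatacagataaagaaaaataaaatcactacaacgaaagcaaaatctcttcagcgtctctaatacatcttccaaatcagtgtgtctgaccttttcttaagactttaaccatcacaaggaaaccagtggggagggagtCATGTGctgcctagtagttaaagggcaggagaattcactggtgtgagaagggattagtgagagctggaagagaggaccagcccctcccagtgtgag
Tyr: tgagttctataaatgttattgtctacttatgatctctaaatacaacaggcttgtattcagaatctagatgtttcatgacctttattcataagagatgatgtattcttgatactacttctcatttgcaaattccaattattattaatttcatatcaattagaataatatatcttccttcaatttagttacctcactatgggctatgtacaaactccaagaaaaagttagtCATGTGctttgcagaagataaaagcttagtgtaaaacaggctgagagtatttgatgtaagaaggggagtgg
Dct held 2 matches, one of them written CACATG because it lies on the other strand, from -232 to -227 and from -150 to -145 relative to the start. Tyrp1 held 1 match from -46 to -41, and Tyr held 1 from -21 to -16. Of the 6 members with a window, these 3 held CATGTG, and 14.2% of all 32851 windows held it. The members were counted by gene and the 14.2% by window, with 27025 genes behind the 32851 windows. Kit and Mitf had several windows each, so these values are in different units and their contrast is not a measure of enrichment. The palindrome CACGTG, another E-box, was in 7.15% of all windows and in no window of these 6 genes. Kit, Mitf and Ednrb held neither sequence. A match describes letters only and was not set against binding data.

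The arrays carried probe set signals on a linear scale with a lowest value of exactly 1. The 19 control probe sets for absent transcripts had a median signal of 42.2 and a 95th percentile of 137.7, and values under the latter are called within background below. Arrays hold no counts, so their number limits the precision. Array medians ran from 102.04 to 135.7 and correlations within groups from 0.910 to 0.987. The ratio of 3' to 5' Gapdh signal, a measure of RNA degradation, was 2.12 on adult replicate 1 and 0.756 to 1.04 on the other 13 arrays. The stromal genes Col1a1 and Lum were measured in every group, and Kera, which marks keratocytes, fell from 303 ± 112 in adult stroma to 44.7 ± 41.5 in fibroblast cultures (SD, n = 3 each; adjusted p = 0.0106 by limma). Markers of other eye tissues were also present in the dissected stroma, as described with the results they accompany. In bulk RNA, fewer cells of a type and less RNA per cell cannot be told apart.

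Dct, dopachrome tautomerase, which converts an intermediate of melanin synthesis, was the member above background on all 14 arrays. Adult arrays read 444, 510.2 and 485, and P10 arrays read 888 and 1916. Keratocyte cultures gave 1238, 1094 and 1267, fibroblast cultures 359, 388 and 239, and myofibroblast cultures 284, 399 and 319. Every P10 and keratocyte array lay above every adult array, and every fibroblast and myofibroblast array lay below every adult array. Group means were 479.5 ± 33.6 in adult stroma (SD, n = 3), 1402 ± 727 at P10 (n = 2), 1199.9 ± 92.4 in keratocyte, 329 ± 79.2 in fibroblast and 334 ± 58.8 in myofibroblast cultures (n = 3 each). The mean was thus 2.92 times as high at P10 as in the adult and 2.50 times as high in keratocyte cultures as in adult stroma. From highest to lowest the order was P10, keratocyte, adult, myofibroblast and fibroblast. P10 overlapped keratocyte cultures and the 2 cultures in 10% serum overlapped each other, so those neighbours do not differ beyond their spread.

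**Figure D1:**
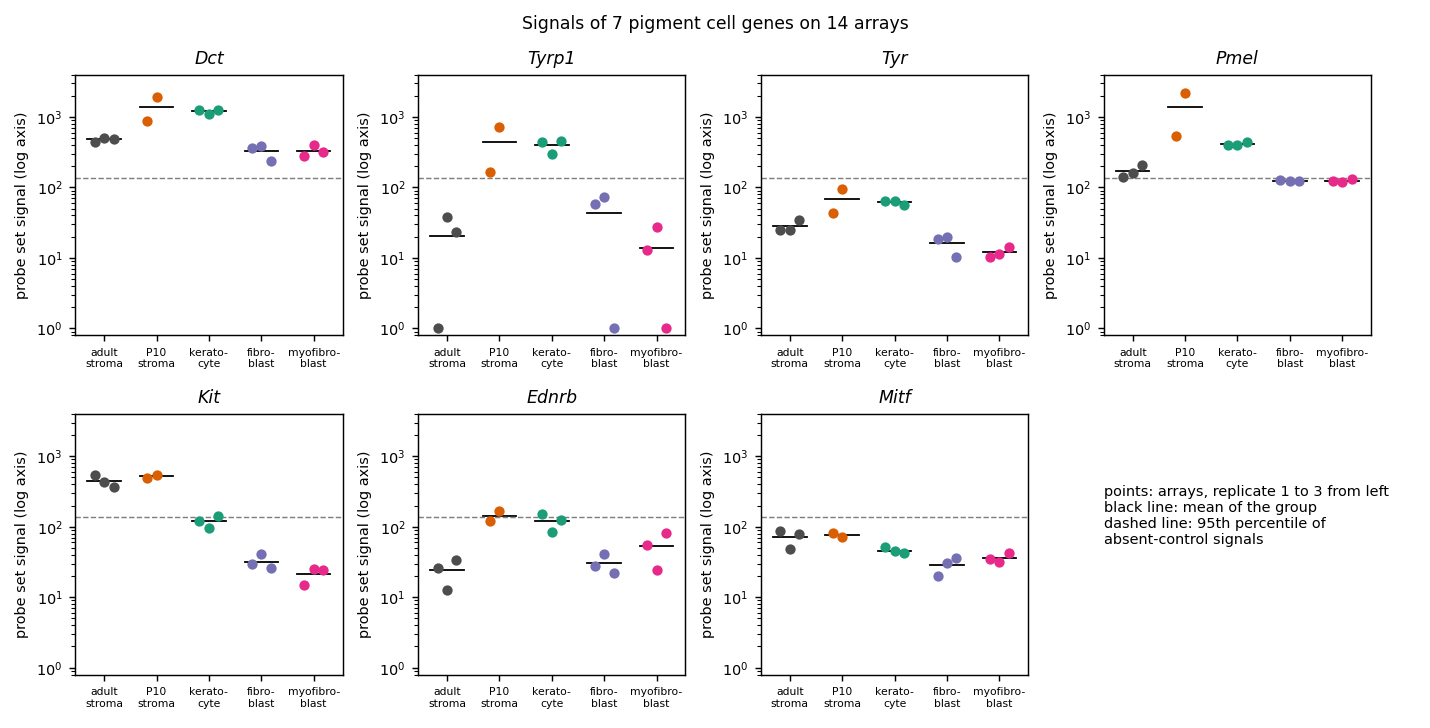
Probe set signal (log axis) of each of the 7 genes on each array, by group, with the group mean as a black line and the 95th percentile of absent-control signals (137.7) as a dashed line. Every P10 and keratocyte array read higher than every adult array for Dct, Tyrp1, Tyr, Pmel and Ednrb, although Tyr and Mitf stayed below the dashed line throughout. The share of all probe sets with this layout was not counted.

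Tyrp1, tyrosinase-related protein 1, a melanosome enzyme that also steadies tyrosinase, was above background at P10 and in keratocyte cultures alone. Its main probe set read 1, 37.9 and 23.3 on the adult arrays, all within background, and 167 and 719 on the P10 arrays. Keratocyte cultures read 437, 303 and 462, above every adult array and above background on all 3. Fibroblast cultures read 58.6, 72.5 and 1, and myofibroblast cultures 12.8, 27.7 and 1, all within background. Because the adult signal was only a bound, the P10 level was at least 2.52-fold and the keratocyte level at least 2.86-fold above the adult one. The same bound of at least 2.86-fold held for keratocyte over fibroblast and over myofibroblast cultures. A bound sets the mean log2 signal of the brighter group against the background value of 137.7. Measured means were 20.7 ± 18.6 in adult stroma (SD, n = 3), 443 ± 390.1 at P10 (n = 2) and 401 ± 85.8, 44.04 ± 37.9 and 13.8 ± 13.4 in keratocyte, fibroblast and myofibroblast cultures (n = 3 each). P10 and keratocyte cultures overlapped, and so did the 3 groups within background, which are given no order.

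Of the other Tyrp1 probe sets, those that could be tested were also highest at P10 and in keratocyte cultures. On the second probe set the P10 arrays read 46.6 and 233, keratocyte cultures 102 to 119 and adult arrays 10.4 to 28.9. On the third the P10 arrays read 42.6 and 207, keratocyte cultures 114 to 137 and adult arrays 1 to 4.99. Only P10 replicate 2 was above background on these 2 probe sets. The fourth stayed between 1 and 10.6 on all 14 arrays and was not tested.

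**Figure D2:**
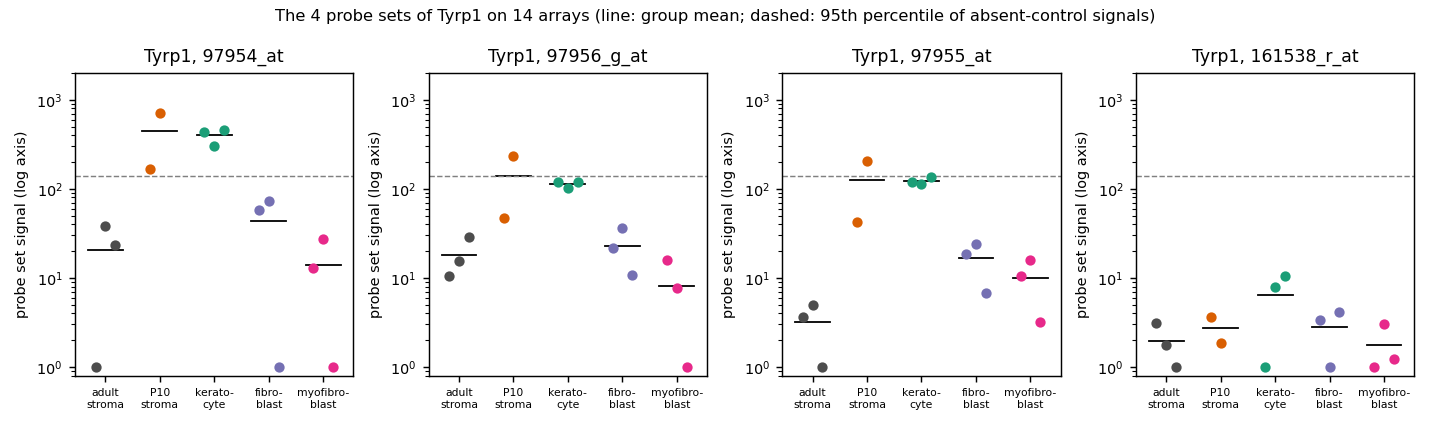
Signal (log axis) of the 4 Tyrp1 probe sets on each array, by group, with the group mean as a line and the 95th percentile of absent-control signals (137.7) dashed. On the first 3 probe sets every P10 and keratocyte array read higher than every adult array, and the fourth stayed at 10.6 or lower on every array.

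Tyr, tyrosinase, the rate-limiting enzyme of melanin synthesis, was within background on all 14 arrays, so no fold is given. Its signals were 25.1, 25.2 and 34.2 in adult stroma and 42.9 and 95.02 at P10. Keratocyte cultures read 63.9, 64.8 and 56.5. Fibroblast cultures read 18.8, 19.9 and 10.3, and myofibroblast cultures 10.3, 11.4 and 14.3. All keratocyte and P10 arrays were above all adult arrays, and all arrays of the other 2 cultures were below them, the same layout as for Dct. P10 and keratocyte cultures overlapped, as did fibroblast and myofibroblast cultures.

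Pmel, the fibril protein of the melanosome, read 142, 161 and 207 on the adult arrays, just above background, and 533 and 2224 on the P10 arrays. Keratocyte cultures read 402, 400.1 and 436. The 6 arrays of the other cultures read 119 to 133, all within background and with little spread. Means were 170.4 ± 33.6 in adult stroma (SD, n = 3), 1378 ± 1196 at P10 (n = 2), 413 ± 20.1 in keratocyte cultures and 125 ± 0.694 in fibroblast cultures (n = 3 each). The P10 mean was 8.09 times and the keratocyte mean 2.42 times the adult mean. Keratocyte cultures were at least 2.99-fold above either of the other cultures. All keratocyte arrays lay between the adult arrays and the lower P10 array. The order was P10, keratocyte and adult, then the other 2 cultures, which overlapped.

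Kit, the receptor for the growth factor Kitl, had another pattern. Adult arrays read 538, 429 and 365, and P10 arrays 493 and 546, so the tissues overlapped. Keratocyte cultures read 119, 95.5 and 142, of which only the last was above background. Fibroblast cultures read 29.4, 40.8 and 26.1, and myofibroblast cultures 14.8, 25.6 and 24.1. The mean was 444 ± 87.1 in adult stroma and 119 ± 23.2 in keratocyte cultures (SD, n = 3 each). The adult level was at least 3.18-fold above fibroblast and myofibroblast cultures. The order was P10 and adult, which overlapped, then keratocyte cultures, then the other cultures, all within background.

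Ednrb, the endothelin receptor of pigment cell precursors, was low in adult stroma. It read 25.9, 12.5 and 34.02 in adult stroma and 122 and 166 at P10. Keratocyte cultures read 154, 84.004 and 123, overlapping P10. Fibroblast cultures read 28.1, 40.7 and 22.3, and myofibroblast cultures 55.2, 24.4 and 81.3. Only P10 replicate 2 and keratocyte replicate 1 were above background, so the P10 level was at least 1.03-fold the adult one, against measured means of 144 ± 31.1 (n = 2) and 24.1 ± 10.9 (SD, n = 3). P10 and keratocyte cultures lay above the other 3 groups, which were within background and overlapped.

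Mitf, the master transcription factor of the lineage, was within background on every array. It read 86.9, 48.6 and 78.5 in adult stroma and 82.4 and 71.6 at P10. Keratocyte cultures read 51.1, 44.9 and 41.8, fibroblast cultures 19.7, 30.8 and 35.8, and myofibroblast cultures 35.03, 31.9 and 42.4. Both tissues overlapped, and the fibroblast and myofibroblast arrays lay below every tissue array.

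The first comparison asks what changes as the stroma matures from P10 to the adult. Pmel, Tyrp1, Ednrb and Dct were lower in the adult, Tyr did not pass the threshold, and Kit and Mitf differed little. On the scale of log2(signal + 16), used for all differences here, Pmel differed by -2.59 (SE 0.39), Ednrb by -2.02 (SE 0.36), Dct by -1.42 (SE 0.28) and Tyrp1 by -3.47 (SE 0.71). Their adjusted p-values (limma, Benjamini-Hochberg over 10370 probe sets, two-sided) were 0.00159, 0.0049, 0.0105 and 0.0130. Thus 4 of 7 members were lower and 0 were higher, against 3.26% of all probe sets lower and 0.453% higher. The second and the third Tyrp1 probe sets were lower as well, by -1.90 (adjusted p = 0.0387) and -2.58 (adjusted p = 0.00396). Tyr differed by -0.88 (adjusted p = 0.101), with both P10 arrays above all adult arrays. All of these Tyr signals were within background, and Ednrb was above it on P10 replicate 2 alone. Kit differed by -0.24 (95% interval -0.71 to 0.23) and Mitf by -0.12 (-0.62 to 0.39). The sign of the Mitf difference turned when arrays were scaled another way, to 0.081 after quantile normalization and 0.055 after centring. The median over members was -1.42 and over all probe sets -0.12. With only the 2 groups in the fit, adjusted p was 0.0836 for Dct, 0.0565 for Tyrp1 and 0.0708 for Pmel, and 1 of 7 members (Ednrb) was called. The calls also lean on 1 of the 2 P10 arrays. Without P10 replicate 2, adjusted p was 0.230 for Dct, 0.255 for Tyrp1 and 0.0985 for Ednrb, and 1 of 7 members was called. Without P10 replicate 1, 5 were called, Tyr among them (adjusted p = 0.0486). Without adult replicate 1, the array with the high Gapdh ratio, Tyrp1 had an adjusted p of 0.0635, and with 1 in place of 16 as the added constant 0.120.

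**Figure D3:**
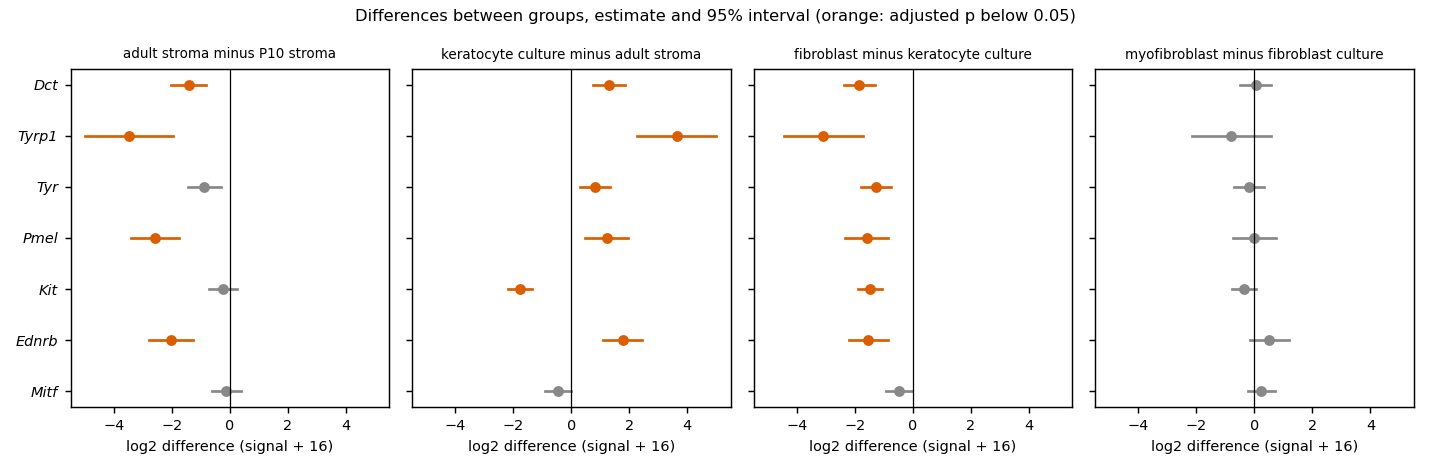
Difference between groups on the log2(signal + 16) scale for each of the 7 genes in 4 comparisons, with the 95% interval from the limma fit; orange marks an adjusted p below 0.05. Of the 7 genes, 4 were lower in adult than P10 stroma, 5 higher and 1 lower in keratocyte cultures than adult stroma, 6 lower in fibroblast than keratocyte cultures, and none passed between myofibroblast and fibroblast cultures.

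Among the members, the melanosome genes differed most between the P10 arrays. On replicate 2 the signal was 4.18 times that on replicate 1 for Pmel, 4.30 times for Tyrp1 and 2.16 times for Dct. It was 1.11 times for Kit. Tyr and Mitf were within background on both arrays and Ednrb on replicate 1, so no ratio is given for these 3. Among all 10370 probe sets kept, ordered by the log2 difference of replicate 2 minus 1, Pmel was number 4 (2.03), and the 3 Tyrp1 probe sets were numbers 5, 6 and 8 (2.003, 1.99 and 1.93). The 3 probe sets ahead of them (Gng11, Svs5 and Vpreb3, named after their values were seen) were at the floor of 1 on replicate 1. Dct was number 46 (1.10) and Tyr number 85 (0.91), while Kit was number 3135 (0.14) and Mitf number 7822 (-0.17). Over all probe sets the median difference was 0.0088, 51.6% were higher on replicate 2 and 0.636% exceeded 1.

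**Figure D4:**
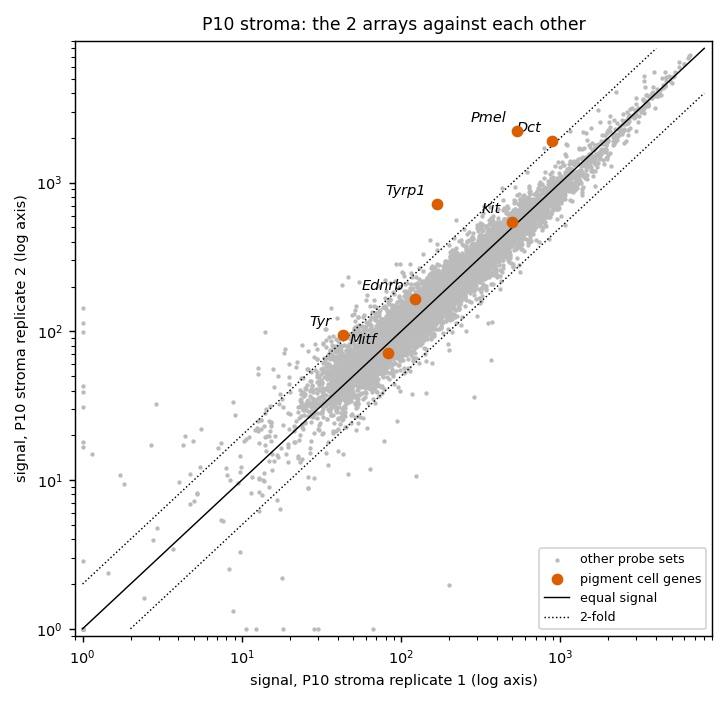
Signal on P10 replicate 2 against replicate 1 for every probe set kept (grey; both axes log) with the 7 genes in orange, a solid line of equal signal and dotted lines at 2-fold. Pmel (533 and 2224), Tyrp1 (167 and 719), Tyr (42.9 and 95.02) and Dct (888 and 1916) lie above the upper dotted line, and Kit, Ednrb and Mitf lie between the lines.

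Markers of tissues behind the cornea moved between the same P10 arrays. Against 51.6% of all probe sets, 14 of 14 photoreceptor and retina genes were higher on replicate 2 (median log2 difference 0.60), and their summed signal was 3374 and 5061. Of 8 lens genes, 6 were higher (0.49), with sums of 7782 and 12202, and of 8 skeletal muscle genes, 7 were higher (0.38). Of 7 retinal pigment epithelium genes, 5 were higher (0.12), with sums of only 1017 and 1063. Within that list Rlbp1, Rgr and Mertk were within background on all 14 arrays. Ttr was above background on all 14, Stra6 on 8, and Rrh and Rdh5 on 5 each. Epithelial and stromal lists were nearly even, with 5 of 12 and 5 of 8 genes higher. For mast cell, endothelial and Schwann cell lists the counts were 7 of 11, 7 of 9 and 4 of 5 (medians 0.078, 0.071 and 0.19). On adult replicates 1, 2 and 3 the photoreceptor sum was 1959, 2631 and 5683. Pmel, at 142, 161 and 207, was lowest and highest on the same arrays, and Kit, at 538, 429 and 365, was the reverse. Dct, at 444, 510.2 and 485, was highest on replicate 2. The part of these tissues in the pigment gene result was not tested.

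Between adult stroma and P10 stroma, few marker genes passed the test. Pdc, a photoreceptor protein, was lower in the adult (137 ± 44.6, n = 3, against 420.3 ± 145, SD, n = 2; adjusted p = 0.0049), and Sag, the rod arrestin, was not called (adjusted p = 0.625). Of the lens list only Crygd was lower (adjusted p = 0.00247). Ttr was the one pigment epithelium gene called, and was lower (adjusted p = 0.0427). The stromal genes Col1a1 and Col1a2 were lower in the adult too (adjusted p = 0.000195 and 0.000202). Tnnc2 was the muscle gene called, and was lower (adjusted p = 0.045). Of 12 epithelial genes Krt14 and Krt15 were lower (adjusted p = 0.0398 and 0.0162) and Psca, a surface protein, was higher (3.43e-08). None of 11 mast cell, 9 endothelial and 5 Schwann cell genes was called by limma, and 2, 2 and 1 of them had an unadjusted p below 0.05. The part of these cell types in the members' result was not tested.

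The second comparison asks what happens when adult stromal cells are cultured in the keratocyte medium. Tyrp1, Ednrb, Dct, Pmel and Tyr rose, Kit fell, and Mitf did not pass the threshold. The rises were 3.64 (SE 0.63) for Tyrp1, 1.77 (SE 0.32) for Ednrb, 1.29 (SE 0.25) for Dct, 1.22 (SE 0.35) for Pmel and 0.82 (SE 0.24) for Tyr. Adjusted p-values were 0.000527, 0.000671, 0.0012, 0.0155 and 0.0190, and the groups did not overlap for any of these 5. Tyr, counted among them, was within background on every array of both groups, and Ednrb was above it on keratocyte replicate 1 alone. The share of all probe sets without overlap was not counted. Kit fell by 1.77 (SE 0.20; adjusted p = 8.8e-06), and Mitf differed by -0.47 (SE 0.21; adjusted p = 0.108). So 5 of 7 members were higher and 1 lower, where 21.8% of all probe sets were higher and 9.25% lower. The median over members was 1.22 and over all probe sets 0.12. Centring moved the median of all probe sets to -0.052, and the share of higher calls among all calls from 70.2% to 52.9%. After centring, Dct (1.12), Tyrp1 (3.46), Pmel (1.04) and Ednrb (1.60) were still called higher, Tyr was not (adjusted p = 0.0571), and Mitf was called lower (adjusted p = 0.0268). Tyr also lost its call without adult replicate 1 (adjusted p = 0.0560), keratocyte replicate 1 (0.0659) or keratocyte replicate 2 (0.0557). Pmel lost it without adult replicate 1 (0.0595) or keratocyte replicate 3 (0.0524), and Mitf was called lower without adult replicate 2 (0.0177).

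Markers of the neighbouring tissues went the other way in this comparison. All 12 corneal epithelium genes kept were lower in keratocyte cultures, their sum going from 26581 to 29154 in adult stroma to 954 to 1059. Among 14 photoreceptor genes 11 were lower and none was higher, and Sag went from 1159 ± 1043 to 7.07 ± 3.37 (SD, n = 3 each). Of 8 lens genes 4 were lower and 1 (Crygd) was higher. Summed signals of retinal pigment epithelium genes stayed in one range, 733 to 1027 in adult stroma and 912 to 993 in keratocyte cultures, with 2 of 7 genes higher and 1 lower. Of 9 endothelial genes 4 were higher (Cdh5, Emcn, Eng and Flt1, named after their values were seen), with sums of 885 to 1199 and 2240 to 2983. Of 8 stromal genes 6 were higher. Of 11 mast cell genes 1 (Fcer1a, named after its values were seen) was higher and none lower. Of the 12 measured, 7 were above background on at least 1 array. Mcpt1, Cma1, Tpsab1 and Gata2 were above it on all 14 arrays, and Tpsb2 on 9. The other 5, Cpa3 and Ms4a2 among them, were within background on all 14 arrays. Kit fell together with the epithelial list, and the part of any of these cell types in the members' result was not tested.

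**Figure D5:**
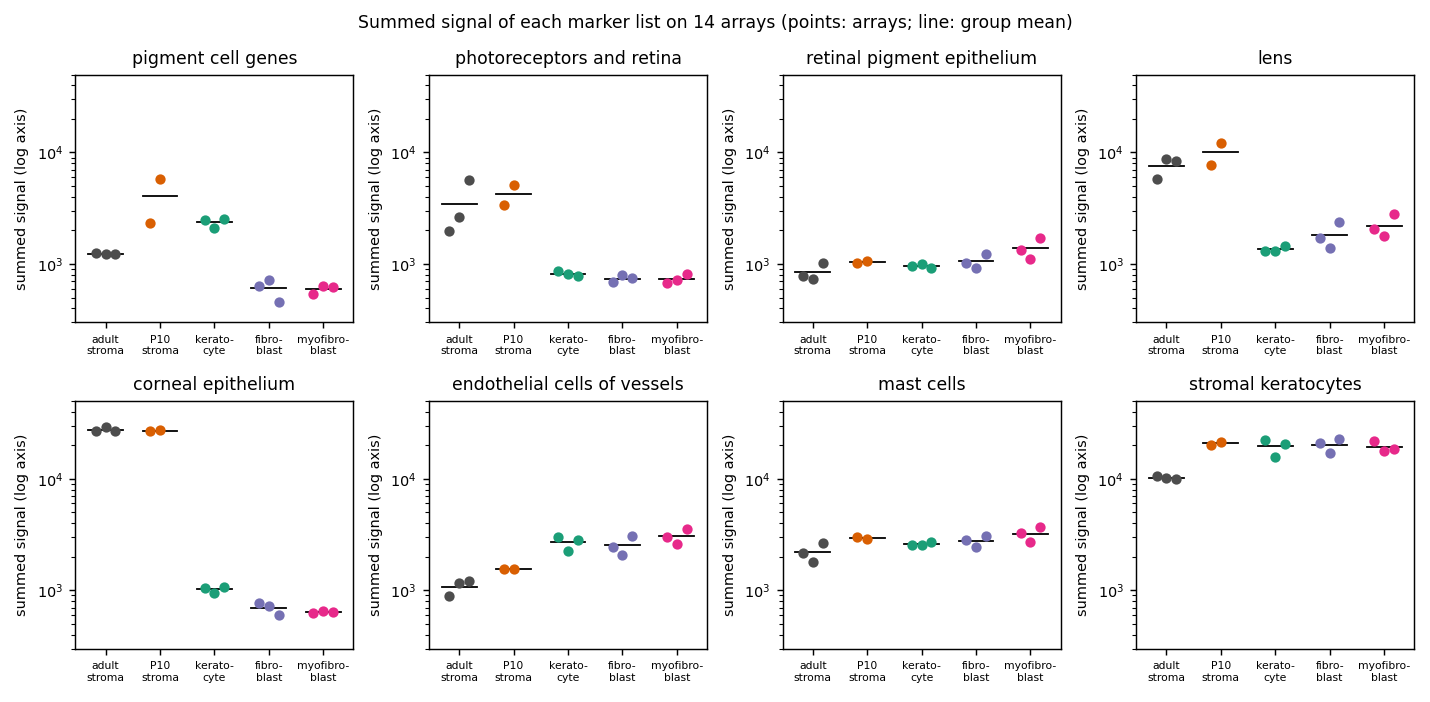
Summed probe set signal (log axis) of the 7 pigment cell genes and of 7 marker lists on each array, by group, with the group mean as a line. The pigment cell sum was 2087 to 2528 in keratocyte cultures against 1224 to 1262 in adult stroma, while the sums of photoreceptor, lens and corneal epithelium genes were lower in every culture array than in every tissue array.

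The third comparison asks how fibroblast cultures differ from keratocyte cultures. Both were grown from adult stromal cells, but the labels do not say that they shared a cell isolation. Of the 7 members 6 fell, and Mitf was not called. Every fibroblast array was below every keratocyte array for all 7 genes, but how many of all probe sets separated in this way was not counted. The differences were -3.09 (SE 0.63) for Tyrp1, -1.84 (SE 0.25) for Dct, -1.60 (SE 0.35) for Pmel, -1.54 (SE 0.32) for Ednrb, -1.49 (SE 0.20) for Kit and -1.28 (SE 0.24) for Tyr. Adjusted p-values were 0.0285, 0.00235, 0.0364, 0.0295, 0.00195 and 0.0194, and Mitf differed by -0.48 (adjusted p = 0.530). Across all probe sets 1.18% were lower and 0.193% higher. The median over members was -1.54 and over all probe sets -0.093. Dct and Kit held their call without any single array. Tyrp1, Pmel, Tyr and Ednrb lost theirs without fibroblast replicate 3 (adjusted p = 0.0943, 0.110, 0.0831 and 0.116), without keratocyte replicate 1 (0.127, 0.145, 0.106 and 0.177) and without keratocyte replicate 3 (0.148, 0.167, 0.107 and 0.148). Tyrp1, Pmel and Tyr lost theirs without keratocyte replicate 2 (0.0538, 0.0944 and 0.0671), and Pmel and Ednrb without fibroblast replicate 1 (0.0736 and 0.0660). Pmel lost it without fibroblast replicate 2 (0.0842). With an added constant of 1 Tyrp1 (adjusted p = 0.278) and Ednrb (0.0683) were not called. Pmel was not called with a constant of 64 (0.0564) or after quantile normalization (0.0657), nor were Tyrp1 (0.127) and Ednrb (0.0705) with only these 2 groups in the fit. The second Tyrp1 probe set had an adjusted p of 0.0579. Tyr and Mitf were within background on every array of both groups. Kit was above it on keratocyte replicate 3 alone and Ednrb on keratocyte replicate 1 alone, so no fold is given for these genes. Of the marker lists, 2 of 12 epithelial genes fell (Pax6 and Perp, adjusted p = 0.0183 and 0.0325), as did Cdh5 (0.0155) among 9 endothelial and Ptgds (0.00675) among 8 stromal genes, all named after their values were seen. None of 14 photoreceptor, 8 lens, 7 pigment epithelium and 11 mast cell genes was called by limma, with 0, 0, 0 and 2 at an unadjusted p below 0.05. The part of the listed cell types was not tested.

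Myofibroblast cultures were compared with keratocyte cultures as well, after the values were seen. Dct, Tyrp1, Pmel, Tyr and Kit fell, with differences of -1.81 (SE 0.25), -3.89 (SE 0.63), -1.61 (SE 0.35), -1.47 (SE 0.24) and -1.85 (SE 0.20). The adjusted p-values were 0.000506, 0.00177, 0.0122, 0.00195 and 7.79e-05. Ednrb differed by -1.03 (adjusted p = 0.0770) and Mitf by -0.24 (adjusted p = 0.574). Thus 5 of 7 members were lower, against 4.88% of all probe sets, and 0 were higher, against 1.1%. Tyr, counted among the lower ones, was within background on every array of both groups. Kit, also counted, was above it on keratocyte replicate 3 alone. Pmel was not called without keratocyte replicate 3 (adjusted p = 0.0599), and Ednrb was called lower without myofibroblast replicate 3 (0.0407). This comparison shares its keratocyte arrays with the one before.

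Whether TGF-beta1 added to serum changes the programme further was read from myofibroblast against fibroblast cultures. None of the 7 members passed in the limma fit, and none had an unadjusted p below 0.05 (0 of 7), against 1.07% of all probe sets called. With the replicate number as a block, since same-numbered arrays of these cultures deviated together, 0 members and 173 probe sets were called in place of 111. Differences were 0.037 for Dct (95% interval -0.50 to 0.57), -0.80 for Tyrp1 (-2.16 to 0.56), -0.0093 for Pmel (-0.75 to 0.74) and -0.20 for Tyr (-0.72 to 0.33). For Kit the difference was -0.36 (-0.78 to 0.059), for Ednrb 0.51 (-0.17 to 1.196) and for Mitf 0.24 (-0.21 to 0.69). All 3 myofibroblast arrays read lower than all 3 fibroblast arrays for Kit, and every other member overlapped. The Kit arrays here were all within background, and the share of all probe sets separated in this way was not counted. The difference of Dct between fibroblast and keratocyte cultures, -1.84, lies outside its interval here. The other members were within background on all fibroblast arrays, where a further fall could not be read. The sign of the differences of Dct and Pmel turned when single arrays were left out, and that of Pmel after quantile normalization.

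The other cultures were also set against adult stroma, whose arrays they share. In fibroblast cultures Kit was lower by -3.25 (SE 0.20; adjusted p = 1.48e-08) and Mitf by -0.95 (SE 0.21; adjusted p = 0.00324), so 2 of 7 members were lower and 0 higher, against 12.3% and 18.4% of all probe sets. Mitf and Tyr were within background in every group, and Ednrb on every adult, fibroblast and myofibroblast array. In myofibroblast cultures Kit was lower by -3.61 (SE 0.20; adjusted p = 4.63e-09) and Mitf by -0.71 (SE 0.21; adjusted p = 0.0185), again 2 lower and 0 higher, against 15.5% and 17.5%. The Mitf call in myofibroblast cultures was lost without adult replicate 1 (adjusted p = 0.0813) or 3 (0.0502) and without myofibroblast replicate 1 (0.0548) or 2 (0.0584). Dct differed by -0.55 (adjusted p = 0.115) in fibroblast and -0.51 (0.136) in myofibroblast cultures. Tyr differed by -0.46 (0.174) and -0.65 (0.0527), and its value in myofibroblast cultures passed under several other settings, with an adjusted p of 0.0236 at an added constant of 1. Pmel (-0.38 and -0.39), Tyrp1 (0.55 and -0.25) and Ednrb (0.23 and 0.74) were not called. Ednrb was called higher in myofibroblast cultures when their replicate 2 was left out (adjusted p = 0.0130). The 12 epithelial genes were lower in both cultures as well.

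Keratocyte cultures were set against P10 stroma after the values were seen. For Dct, Tyrp1, Tyr and Ednrb the arrays of the 2 groups overlapped, with differences of -0.12 (95% interval -0.72 to 0.48), 0.16 (-1.36 to 1.68), -0.058 (-0.64 to 0.53) and -0.25 (-1.01 to 0.51). Pmel was lower in keratocyte cultures by -1.37 (SE 0.39; adjusted p = 0.0264) and Kit by -2.002 (SE 0.22; adjusted p = 1.53e-05). Mitf differed by -0.59 (adjusted p = 0.121). So 2 of 7 members were lower and 0 higher, against 6.59% and 8.84% of all probe sets. The Pmel call was lost without P10 replicate 2 (difference -0.36, adjusted p = 0.485) and without keratocyte replicate 1, 2 or 3 (adjusted p = 0.0681, 0.0604 and 0.0617). With only the 2 groups in the fit Pmel was not called (0.0777) and Mitf was called lower (0.0266). Without P10 replicate 2 the differences of Dct and Tyr turned to 0.42 and 0.40, and without P10 replicate 1 that of Tyrp1 turned to -0.84.

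Among the other genes of the pathway only Met, a receptor described last, was called between adult and P10 stroma. The lists had 5, 7, 8 and 10 genes tested, and 3.26% of all probe sets were called lower in this comparison. Of 10 listed melanosome and melanin genes 6 were measured and 5 kept, and none was called by limma (0 at an unadjusted p below 0.05). Oca2, a melanosome transporter whose loss causes albinism, read 64.4 ± 27.8 in adult and 108 ± 54.2 at P10 (69.9 and 147 on its arrays), then 86.9 ± 3.84 in keratocyte and 33.7 ± 6.79 in fibroblast cultures (SD, n = 3, or 2 at P10). Its difference was -0.61 between adult and P10 (adjusted p = 0.363) and it was lower in myofibroblast than in keratocyte cultures (-1.08, adjusted p = 0.0257). Atp7a, the copper pump that loads tyrosinase, and Cited1 differed by -0.41 and 0.40 (adjusted p = 0.390 and 0.572). All 5 genes of this list were higher on P10 replicate 2 than on replicate 1, with a median of 0.55, against 51.6% of all probe sets. Atp7a and Cited1 were within background on both P10 arrays. Oca2 was above it on P10 replicate 2 and on no other array of the series.

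Genes for building and moving melanosomes, 7 of 17 listed being measured, gave no call in limma between adult and P10, with 0 at an unadjusted p below 0.05. The largest differences were 0.43 for Hps4 and -0.26 for Lyst, both of which serve lysosome-related organelles, and -0.24 for Ap3d1, an adaptor subunit. From adult stroma to keratocyte cultures 1 rose and 1 fell. Myo5a, the motor that carries melanosomes, read 12.2 ± 8.30 and 81.4 ± 20.9 (SD, n = 3 each; adjusted p = 0.00231; named after its values were seen), all within background, and Hps4 fell by 0.69 (adjusted p = 0.0228).

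Of 8 pigment cell transcription factors measured none was called between adult and P10 by limma, and 1 had an unadjusted p below 0.05. Foxd3, a neural crest factor, differed by -0.70 (adjusted p = 0.0639) and Sox10, which acts upstream of Mitf, by -0.39 (adjusted p = 0.838). Sox10 rose in keratocyte cultures, from 133 ± 66.5 to 474 ± 295 (SD, n = 3 each; adjusted p = 0.0225), and was 408 ± 226 in fibroblast and 443 ± 205 in myofibroblast cultures. The pattern of Sox10 over the cultures was thus not that of Dct or Tyrp1, which fell between keratocyte and fibroblast cultures while Sox10 differed by -0.20 (adjusted p = 0.952).

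Of 10 signal genes kept, Met, the receptor for hepatocyte growth factor, was lower in adult than P10 stroma (53.8 ± 21.03, n = 3, against 117 ± 14.5, SD, n = 2; -0.97, adjusted p = 0.0291), with every value within background. Kitl, the ligand of Kit, differed by -0.39 (adjusted p = 0.418) between the tissues. In culture Kitl rose as Kit fell: it read 197 ± 39.6 in adult stroma and 871 ± 165 in keratocyte cultures (SD, n = 3 each; adjusted p = 9.09e-07), then 566 ± 45.4 and 487 ± 56.4 in fibroblast and myofibroblast cultures. Edn2, an endothelin, fell from 103 ± 43.2 in adult stroma to 3.64 ± 4.58 in keratocyte cultures (adjusted p = 3.24e-05), within background in both means, and Erbb3 differed by -0.30 between adult and P10 (adjusted p = 0.678).

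The genes most like each member over the 14 arrays were read from Pearson correlations of log2(signal + 16) between genes. All arrays share one scaling, and the 5 groups set much of each value. Tyr and Mitf were within background on all 14 arrays, so their correlations rest on such signals alone. Dct and Tyr were each other's nearest gene of 7428 (r = 0.973 over 14 arrays and 0.975 over the 9 culture arrays). For Dct the next were Myh11 (0.948) and Ptgds (0.942), and for Tyr the same Myh11 (0.961) and Ptgds (0.953). Ptgds is on the stromal keratocyte list. For Pmel the nearest were Tspan13 (0.927), Dct (0.917) and Tyr (0.906). For Tyrp1 they were Col15a1 (0.960), Cntn1 (0.947) and Slc4a5 (0.936). Ednrb was nearest to Sparcl1 (0.863), Tgfbr1 (0.835) and Hfe (0.828). Kit was nearest to Stxbp2 (0.982), Perp (0.981) and Sh3gl2 (0.981), and Perp is on the corneal epithelium list. Mitf was nearest to Defa35 (0.904), Uba7 (0.902) and Slc38a4 (0.901), with 0.687, 0.856 and 0.475 over the cultures alone.

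Kit had higher correlations with the enzymes over the cultures than over all arrays. In culture Kit was above background on keratocyte replicate 3 alone, Tyrp1 in keratocyte cultures alone, and Tyr and Mitf nowhere. The culture correlations of Kit thus rest largely on signals within background. The correlation of Kit with Dct was 0.590 over 14 arrays and 0.967 over the 9 cultures, with Tyrp1 0.348 and 0.940, and with Tyr 0.642 and 0.966. With Mitf it was 0.866 over 14 arrays and 0.574 over the cultures. Mitf and Tyrp1 had 0.140 and 0.383, the lowest pair over all arrays and over the cultures. With 9 or 14 arrays in 3 or 5 groups these values describe the layout of group means more than any array-to-array relation.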

How the data were processed

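Total RNA (5 µg per array) was labelled for Affymetrix MG_U74Av2 arrays. The deposited values are intensity signals of 12488 probe sets, scaled to a target of 150 with Microarray Suite 5.0 per the labels; the treatment of signals at the floor of 1 is not stated in those labels. After 66 control probe sets were left out, 10370 of 12422 probe sets had a group mean of 50 or more. Of the 12422, 10833 had 1 symbol, 396 several and 1193 none. Groups were compared on log2(signal + 16) with limma 3.58.1 in R 4.3.3, in a single model of 14 arrays (residual degrees of freedom: 9), with a variance trend and Benjamini-Hochberg adjustment; adjusted p below 0.05 was called. Constants of 16 understate changes of dim probe sets. A gene stood for its probe set of highest mean log2 signal. Every member was described; from each pathway list the genes called between adult and P10 and up to 3 others of largest difference were named, from each marker list the gene of highest P10 signal and up to 3 called. Members and lists were chosen with earlier results of these data known, and keratocyte against P10 and myofibroblast against keratocyte cultures were added after values were seen. Deviations of same-numbered arrays had correlations of 0.623, 0.682 and 0.533 for myofibroblast with fibroblast cultures. They were 0.197, 0.572 and 0.069 for fibroblast with keratocyte cultures, and 0.221, 0.409 and 0.074 for myofibroblast with keratocyte cultures. Comparisons with a tissue group gave -0.34 to 0.307. On simulated data for adult against P10, 37% of probe sets changed by log2 1 and 88% of those changed by log2 2 were recovered. Each array left out, other constants, filters, scalings, variance forms and fits with 2 groups were alternatives.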

Additional observations from a re-analysis of the deposited data

How the results depend on the processing

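Members called kept to within 1.5 times in all alternatives except these. With only the 2 groups compared in the fit, 1 member was called between adult and P10 (4 in the fit of all arrays) and 1 between myofibroblast cultures and adult (2). With a filter at a group mean of 100, under which Mitf and Tyr were not tested, 1 was called in fibroblast and 1 in myofibroblast cultures against adult. Leaving out each array gave 1 to 5 members for adult against P10, 1 to 2 for myofibroblast against adult, 2 to 5 for fibroblast against keratocyte and 1 to 2 for keratocyte against P10. Differences that turned sign were small in the fit of all arrays. Mitf between adult and P10 was 0.081 after quantile normalization, 0.055 after centring and -0.25 to 0.086 when each array was left out. Tyrp1 between myofibroblast and adult was -0.73 to 0.10 over the fits without 1 array. Pmel between myofibroblast and fibroblast was 0.057 after quantile normalization, 0.056 after centring, and -0.052 to 0.020 without single arrays. Dct there was -0.17 to 0.17 without single arrays. Keratocyte against P10 gave -0.84 to 1.16 for Tyrp1, -0.67 to 0.42 for Dct and -0.52 to 0.40 for Tyr without single arrays. The causes were not tested. With the replicate number as a block, members called were 4 for adult against P10, 6 for keratocyte against adult, 2 and 3 for fibroblast and myofibroblast against adult, 6 for fibroblast against keratocyte, 6 for myofibroblast against keratocyte, 2 for keratocyte against P10 and 0 for myofibroblast against fibroblast.

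Probe sets called over the whole array moved more. For adult against P10 the 385 became 225 with 2 groups, 628 with the block, 220 without adult replicate 1, and 117 and 133 without P10 replicates 1 and 2. For fibroblast against keratocyte the 142 became 83 with a constant of 1, 46 with 2 groups, 214 with the block, and 59, 36 and 20 without fibroblast replicate 3 and keratocyte replicates 1 and 3. For myofibroblast against fibroblast the 111 became 16 with 2 groups, 173 with the block and 61 without myofibroblast replicate 3. For keratocyte against P10 the 1600 became 2552 with 2 groups, and 876 and 867 without P10 replicates 1 and 2. For myofibroblast against keratocyte the 620 became 1007 with the block, and 296, 303 and 411 without keratocyte replicates 1 and 3 and myofibroblast replicate 3. Centring moved the share of higher calls from 12.2% to 24.1% for adult against P10, from 14.1% to 25.5% for fibroblast against keratocyte, from 27.03% to 39.3% for myofibroblast against fibroblast and from 18.4% to 41.9% for myofibroblast against keratocyte. Tyr and Mitf were within background throughout, and Ednrb was above it on only 2 of 14 arrays, so their differences are uncertain. Tyrp1 had the largest SE of the members, 0.63 to 0.71.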
